A study of Mus musculus with 18 samples.

Results

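Expression of 36 genes of DNA replication and of the step from G1 to S phase was followed in mouse embryonic fibroblasts treated with TGFb1. The genes were taken from a fixed list: the G1/S cyclins and E2F (3 genes), origin licensing (10), helicase activation (4), DNA polymerases and fork proteins (12), nucleotide supply (4) and chromatin behind the fork (3). All probe sets that name only one of these genes were collected, and a probe set was kept when 2 or more of the 18 arrays had a log2 intensity of 5 or higher for it. Of 78 such probe sets 61 were kept and 17 were not. They measured 34 of the 36 genes, among 10078 genes measured in the whole data set. Chaf1a had no probe set in the annotation used here. The 4 probe sets that name Tyms alone, the gene of thymidylate synthase, were under log2 5 in all 18 arrays. In addition, 1 more probe set lists Tyms together with a pseudogene and was not used. It was at log2 9.42 to 10.41 over the arrays, so the dim probe sets do not show that Tyms was silent. Each gene was read from its brightest kept probe set, and 21 of the 34 genes had more than 1.

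DNA replication starts in G1, when the origin recognition complex, Cdc6 and Cdt1 load the ring-shaped Mcm2-7 helicase onto DNA. In S phase Cdc45 and the GINS complex join the ring and switch it on, primase and DNA polymerase alpha start each new strand, and polymerases delta and epsilon extend it while held by the Pcna clamp. Many of these genes are transcribed at the end of G1 by E2F factors, which cyclin E kinase helps to release from the retinoblastoma family of repressors. TGFb is best known as an inhibitor of the cell cycle in G1 in epithelial cells, where it induces the kinase inhibitor Cdkn2b. In fibroblasts it is also known for inducing matrix genes.

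Cells came from fetuses of E12.5 to E14.5 from which head, liver and blood clots had been taken, and were homozygous, heterozygous or wt for a mutant described by the submitters as constitutively active. The title of the study places a point mutation in TGFBR1, the type I receptor of TGFb, whereas the design text names the mutant TGFb1. It is called only the mutant here. Homozygous, heterozygous and wt cells each had 3 groups: untreated (named vehicle in the design text, with no time given), 4 h with 5 ng/mL TGFb1, and 24 h with 5 ng/mL TGFb1. Each of the 9 groups had 2 Affymetrix arrays. No label says that the 2 arrays came from separate fetuses or cultures, so p-values measure only the spread between arrays. In the wt and homozygous groups the arrays of a pair were opposite in the sex-linked genes Xist and Eif2s3y, as described below. Those pairs were therefore not repeats of the same material. In the heterozygous groups the spread may be technical.

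Promoter sequences are shown first, because E2F binding to replication gene promoters is the best known control of this group. RefSeq promoters of build GRCm38.p6, from 250 bases before to 50 bases after the start, were found for 30 of the 36 genes. An E2F-type motif (TTTCCCGC, TTTCGCGC, TTTGCCGC or TTTGGCGC on either strand) was found in a promoter of 12 of these 30 genes (40%), against 704 of 27025 mouse genes (2.6%). By role, 7 of 9 licensing genes, 4 of 10 polymerase and fork genes and 1 of 3 chromatin genes held it, and none of the 2 cyclin and E2F genes, the 2 helicase activation genes or the 4 nucleotide genes did. The box CCAAT, on either strand, was in 18 of 30 (60%), against 41.1% of all genes. The motif TTTGAA, the CHR element known from mitotic promoters, was in 3 of 30 (10%), against 20.2% of all genes. None of these matches shows binding. Only exact letters were searched, so a promoter without a match is not shown to lack an E2F site. The 5 promoters below belong to genes described further on, 4 with a match and 1, Rpa2, without, and capitals mark the matches. Cdc6 is at chr11:98907901-98908200 (plus strand), Mcm3 at chr1:20820263-20820562 (minus strand), Mcm5 at chr8:75109259-75109558 (plus strand), Orc1 at chr4:108579204-108579503 (plus strand) and Rpa2 at chr4:132768110-132768409 (plus strand).
Cdc6: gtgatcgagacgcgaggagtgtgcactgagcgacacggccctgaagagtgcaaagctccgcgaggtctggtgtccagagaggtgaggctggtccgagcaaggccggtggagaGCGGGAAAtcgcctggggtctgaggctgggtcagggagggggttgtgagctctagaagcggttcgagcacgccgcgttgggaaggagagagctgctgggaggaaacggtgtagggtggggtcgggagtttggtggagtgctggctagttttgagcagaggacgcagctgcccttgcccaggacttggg
Mcm3: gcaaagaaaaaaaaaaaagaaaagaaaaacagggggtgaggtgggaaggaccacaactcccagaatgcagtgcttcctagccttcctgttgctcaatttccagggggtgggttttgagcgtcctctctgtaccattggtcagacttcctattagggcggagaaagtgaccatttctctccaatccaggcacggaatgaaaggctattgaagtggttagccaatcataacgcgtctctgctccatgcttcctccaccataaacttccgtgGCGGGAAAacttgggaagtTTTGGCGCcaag
Mcm5: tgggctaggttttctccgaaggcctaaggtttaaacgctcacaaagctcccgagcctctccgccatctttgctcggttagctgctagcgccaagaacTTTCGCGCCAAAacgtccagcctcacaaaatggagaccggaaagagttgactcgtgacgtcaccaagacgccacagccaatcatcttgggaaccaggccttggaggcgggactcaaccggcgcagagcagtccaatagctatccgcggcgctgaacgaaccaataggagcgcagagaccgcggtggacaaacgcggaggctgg
Orc1: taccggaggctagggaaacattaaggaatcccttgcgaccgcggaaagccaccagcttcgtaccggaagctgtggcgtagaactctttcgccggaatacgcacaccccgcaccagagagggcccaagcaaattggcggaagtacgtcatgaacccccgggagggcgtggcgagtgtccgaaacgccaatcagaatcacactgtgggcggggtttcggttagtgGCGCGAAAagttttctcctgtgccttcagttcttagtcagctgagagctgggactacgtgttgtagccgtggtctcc
Rpa2: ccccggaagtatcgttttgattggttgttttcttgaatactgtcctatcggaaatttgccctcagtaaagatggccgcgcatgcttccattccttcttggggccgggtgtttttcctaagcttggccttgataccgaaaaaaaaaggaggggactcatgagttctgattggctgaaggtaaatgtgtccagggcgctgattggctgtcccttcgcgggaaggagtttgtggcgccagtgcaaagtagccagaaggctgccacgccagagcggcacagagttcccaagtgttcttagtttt
The match in Cdc6 began 138 bases before the start and that in Orc1 27 bases before it. Mcm5 held 2 overlapping matches on opposite strands, at 153 and 149 bases before the start, which share letters and appear as 1 run of capitals. Both matches of Mcm3 lay downstream of the start, at positions 20 and 39.

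The arrays were alike in brightness: 39.5 to 40.3% of probe sets reached log2 5 in each array, and the number of arrays limits the precision. TGFb acted in every genotype, since Il11, a cytokine gene that TGFb induces, rose at 4 h by 4.86 ± 0.28 on the log2 scale in homozygous, 4.56 ± 0.28 in heterozygous and 4.19 ± 0.28 in wt cells. In this text ± is the standard error of a limma fit to all 18 arrays, for 2 arrays against 2, p-values are adjusted over the 10078 genes by Benjamini-Hochberg, and a gene rose or fell only where the adjusted p was under 0.05. All 9 fibroblast markers were measured in every group, with summed intensities of 184152 to 259257. Of the other lists, 4 of 6 skeletal muscle, 3 of 5 epithelial, 1 of 5 endothelial and 0 of 4 erythroid markers were measured. All 12 macrophage markers were measured too, and their summed intensity was 6516 to 12239 in homozygous, 9672 to 18060 in heterozygous and 809 to 5440 in wt arrays. Paired arrays differed more in wt than in mutant cells, with a root mean square SD over all genes of 0.32 to 0.39 in the wt groups and 0.18 to 0.22 in the others. By Xist and the Y-linked gene Eif2s3y, the wt array numbered 1 among the untreated arrays matched the arrays numbered 2 among the treated ones. Heterozygous arrays were all high in Xist and low in Eif2s3y. Homozygous arrays were high in Xist in replicate 1 and low in replicate 2 at each time. Each wt and homozygous group thus held an array of each type, and the heterozygous groups did not. Comparisons of heterozygous cells with wt or homozygous cells therefore also differ in sex composition, and its part in the results was not tested. The comparisons do not use the replicate numbers.

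**Figure D1:**
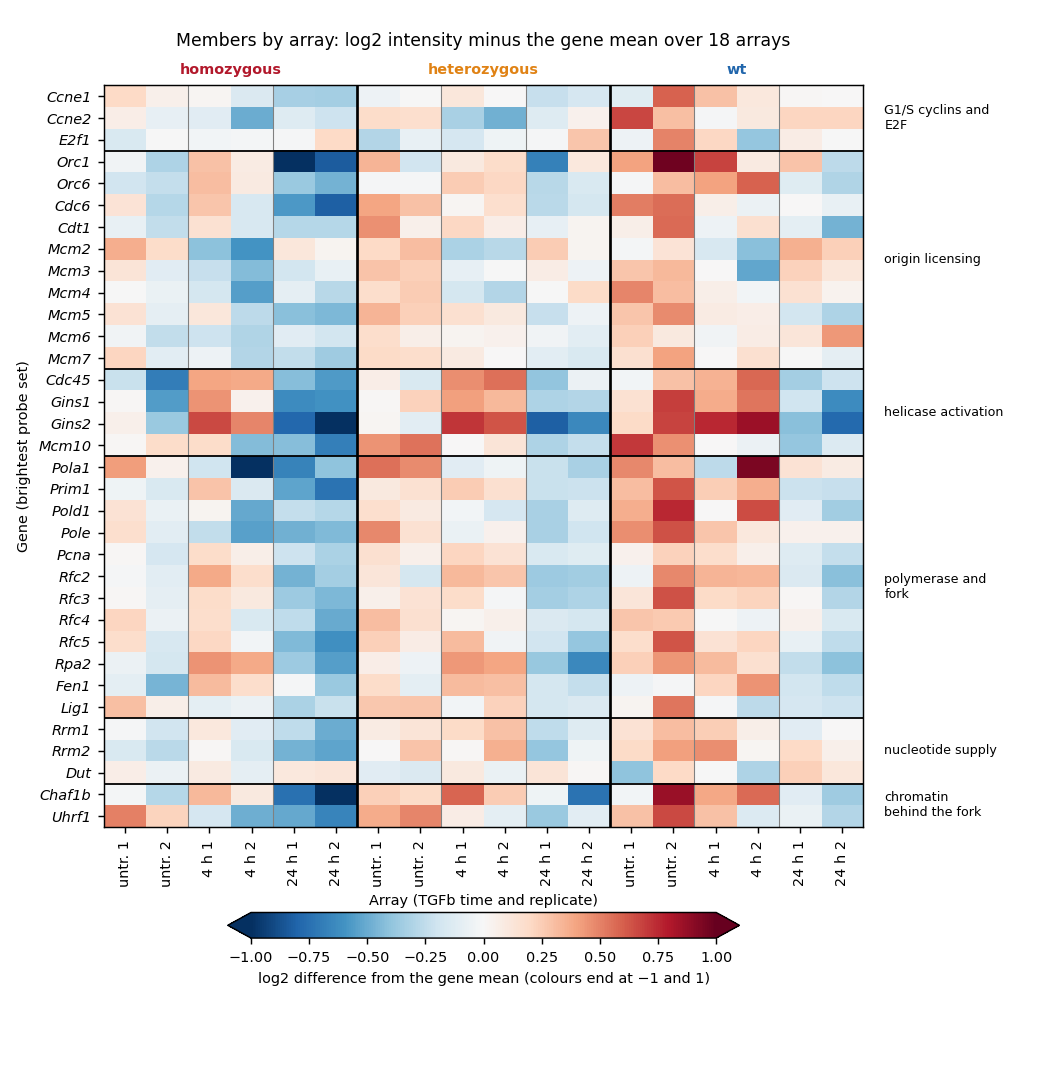
Levels of the 34 measured replication and G1/S genes in the 18 arrays, as log2 intensity minus the mean of that gene over all arrays; rows are grouped by role and columns by genotype and time. The 24 h columns are mostly below the gene mean in homozygous and heterozygous cells, and the untreated wt columns are mostly above it.

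After 24 h of TGFb most of the 34 genes were lower in all 3 genotypes, and 0 of the 34 were higher by the test, against 3.1% of all genes in homozygous, 2.95% in heterozygous and 4.51% in wt cells. In homozygous cells 6 of 34 genes fell (17.6%, against 5.51% of all genes), in heterozygous cells 5 fell (14.7%, against 4.12%), and in wt cells 12 fell (35.3%, against 7.14%). Gins2, a subunit of the helicase complex, and Uhrf1, which keeps DNA methylation on the copied strand, were the 2 genes that fell in all 3 genotypes. The median log2 difference of the 34 genes was -0.35 in homozygous, -0.35 in heterozygous and -0.44 in wt cells, beside medians over all genes of -0.02, 0.01 and -0.06. Of the 34 genes 29 were below the untreated mean in all 3 genotypes, and 1, Dut, was above it in all 3.

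The arrays give a wider count than the test. In 28 of 34 genes both 24 h arrays lay below both untreated arrays, and this count was 28 in each of the 3 genotypes, against 35.3% of all genes in homozygous, 25.9% in heterozygous and 27.2% in wt cells. The mean of the 34 genes, each taken against its own mean over 18 arrays, was -0.36 and -0.44 in the homozygous arrays at 24 h, against 0.07 and -0.15 in the untreated ones. It was -0.22 and -0.17 in the heterozygous 24 h arrays, against 0.18 and 0.12 untreated. In wt cells it was -0.04 and -0.16 at 24 h, against 0.19 and 0.46 untreated. The 24 h arrays were below the untreated arrays in each genotype. Fewer cells in S phase and less of these RNAs per cell cannot be told apart in such samples. The macrophage marker sums were also lower at 24 h in each genotype, at 6516 to 6870 in homozygous cells, against 8913 to 9490 untreated, at 9672 to 13003 in heterozygous cells, against 12151 to 15295, and at 809 to 2520 in wt cells, against 1374 to 3699; these ranges overlap in heterozygous and wt cells, and 1 of the 12 markers fell in each genotype. The skeletal muscle marker sums were lower as well, at 1099 to 1295 in homozygous cells, against 1446 to 1616 untreated, and at 1104 to 1543 in heterozygous cells, against 1651 to 2115. In wt cells they were at 1907 to 6183, against 3003 to 3487, and overlapped, and 0 of the 4 measured muscle markers passed the threshold by limma in any genotype. The epithelial marker sum was higher in homozygous cells, at 1277 to 1412, against 925 to 1144, with 0 of 3 past the threshold. Their part in the result was not tested.

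Each count at 24 h rested on single arrays. In homozygous cells 0 genes were past the threshold without untreated replicate 1 or without 24 h replicate 2, 2 without 24 h replicate 1 and 5 without untreated replicate 2. In heterozygous cells the test called 0 without untreated replicate 1 or 24 h replicate 2, and 1 without untreated replicate 2 or 24 h replicate 1. In wt cells 19 genes fell without untreated replicate 1, whereas 6 did without 24 h replicate 1 and 3 without 24 h replicate 2, and without untreated replicate 2 the test called 4 lower and 1 higher. The wt counts were 0 at 24 h and 0 at 4 h when only the compared groups were fitted or when arrays were weighted by their noise.

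**Figure D2:**
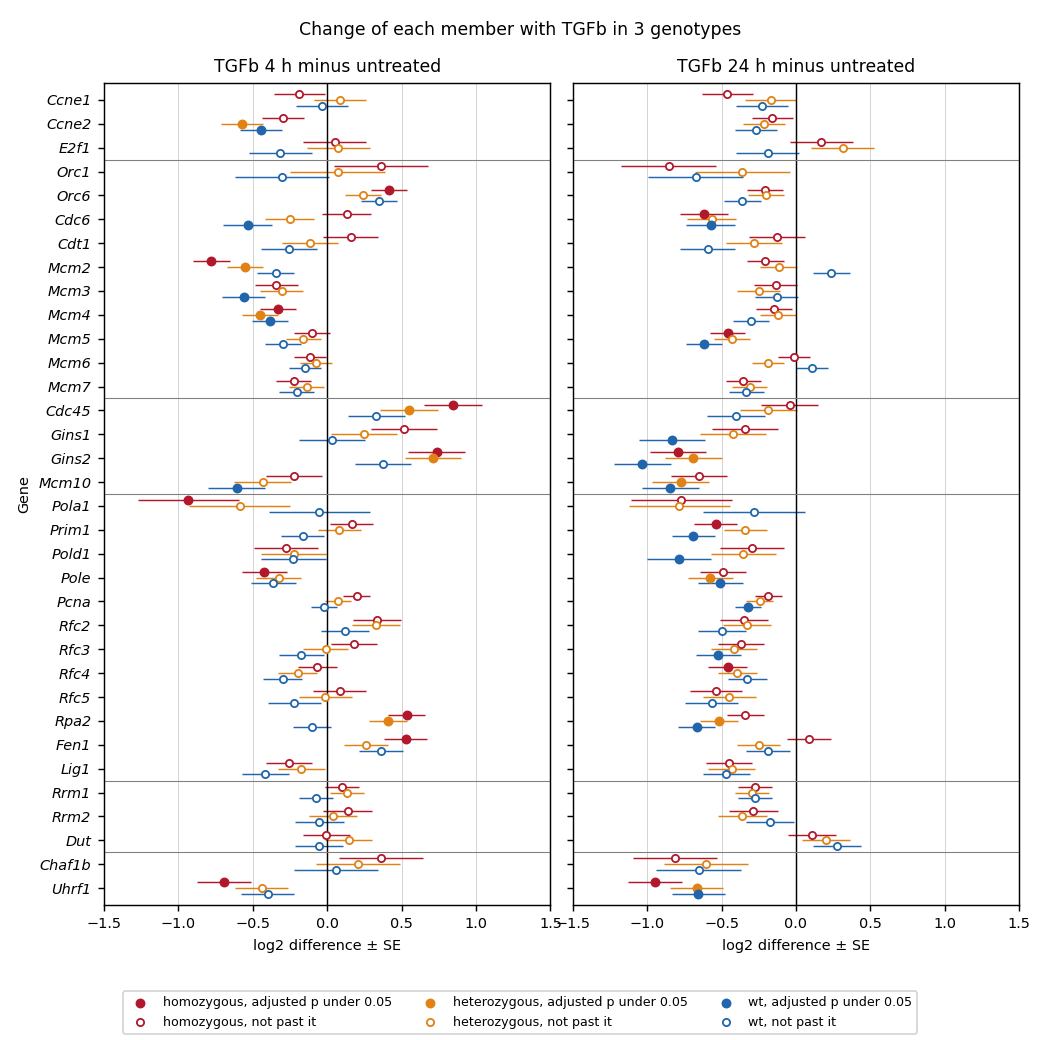
Log2 difference ± SE of each of the 34 genes with TGFb at 4 h (left) and 24 h (right) against untreated cells of the same genotype, with filled symbols for an adjusted p under 0.05. At 24 h nearly all symbols lie left of 0 and all filled ones do; at 4 h filled symbols lie on both sides.

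After 4 h the set was split. The 9 genes that fell in at least 1 genotype were Mcm2, Mcm3, Mcm4, Mcm10, Cdc6, Ccne2, Pole, Pola1 and Uhrf1, and the 5 that rose, in mutant cells, were Gins2, Cdc45, Rpa2, Fen1 and Orc6. In homozygous cells 5 genes rose (14.7%, against 20.1% of all genes) and 5 fell (14.7%, against 17.5%). In heterozygous cells 3 rose (8.82%, against 15.7%) and 3 fell (8.82%, against 13.2%). In wt cells 5 fell (14.7%, against 11.4%) and 0 rose (against 9.49%). These shares are near those of all genes, so they are no result about the set as a whole. The median log2 difference was 0.07 in homozygous, -0.01 in heterozygous and -0.19 in wt cells. Mcm4 was the 1 gene that fell in all 3 genotypes at 4 h, and of the 14 genes past the threshold at 4 h in some genotype none rose in one and fell in another. The 4 h and 24 h comparisons of a genotype share its untreated arrays. At 4 h the macrophage marker sum was 12133 to 12239 in homozygous cells, against 8913 to 9490 untreated, and the fibroblast sum 191384 to 208784, against 254955 to 259257. Of the 9 fibroblast markers 5 fell in homozygous, 4 in heterozygous and 1 in wt cells, and the part of the markers in the result was not tested.

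These 4 h counts moved with single arrays too. In homozygous cells the test called 5 higher and 1 lower without untreated replicate 1 and without 4 h replicate 2, and 0 higher and 3 lower without untreated replicate 2. In heterozygous cells the test called 2 genes without untreated replicate 1, 0 without untreated replicate 2, 3 without 4 h replicate 1 and 2 without 4 h replicate 2. In wt cells it called 1 without untreated replicate 1, none of the 5 above, 0 without 4 h replicate 2, and 8 without 4 h replicate 1, of which 1 was higher. With equal array medians the wt split was 1 higher and 1 lower, and the homozygous split 5 higher and 3 lower.

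The differences from untreated cells were also counted by promoter. At 4 h, of the 12 genes with a match, 8 had a negative difference in homozygous, 11 in heterozygous and 12 in wt cells. Of the 16 measured genes whose promoter held none, 5 had a negative difference in homozygous, 4 in heterozygous and 12 in wt cells. At 24 h the counts were 12, 12 and 11 of 12 with a match and 13, 14 and 14 of 16 without. The counts are a description, and no test was made of them.

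**Figure D3:**
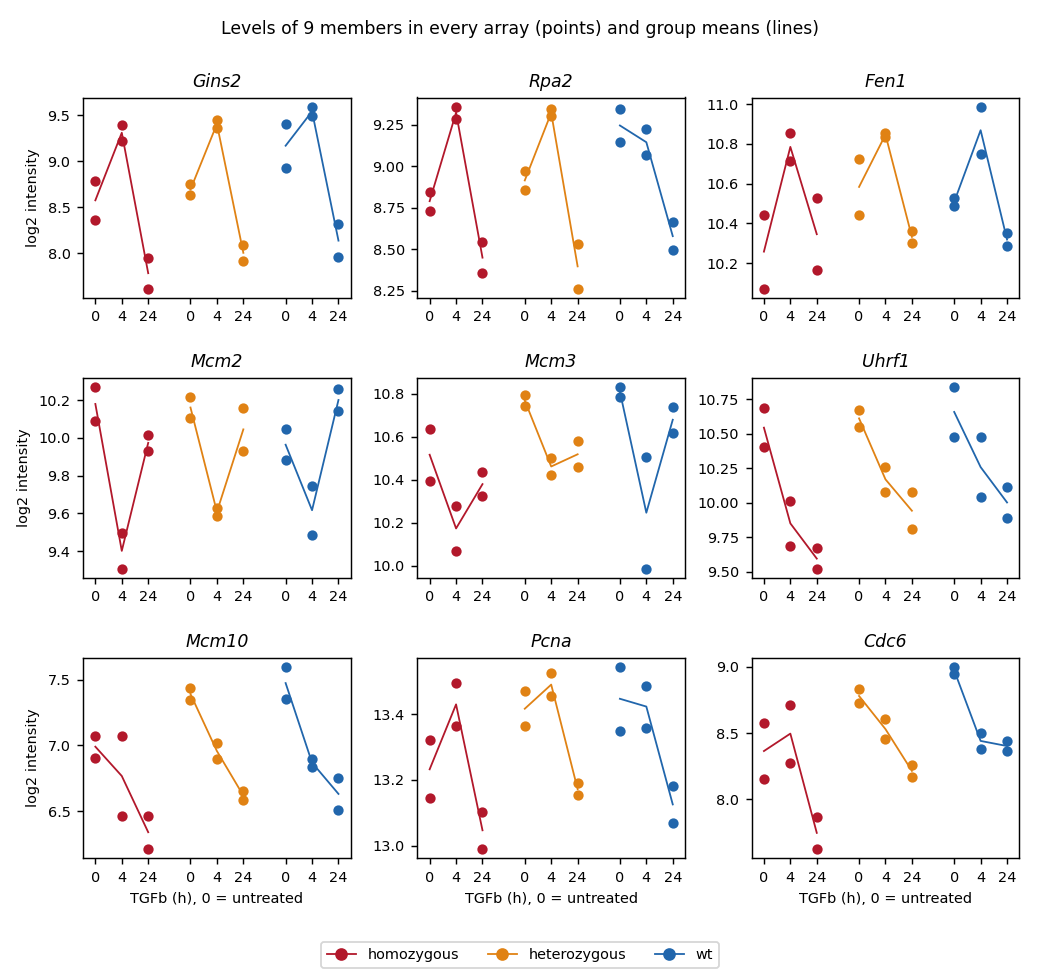
Log2 intensity of 9 genes in every array (points) with the group means joined by lines, for homozygous, heterozygous and wt cells at 0 (untreated), 4 and 24 h; each panel has its own scale. Gins2 is lowest at 24 h in each genotype, Mcm2 is lowest at 4 h, and Uhrf1 is lower at each later time.

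Among the 10 licensing genes, Mcm2, Mcm3, Mcm4 and Orc6 passed the threshold against untreated cells at 4 h alone, Mcm5 at 24 h alone and Cdc6 at both. The share of all genes that passed at either time was not counted, so this list is no result about licensing. Mcm2 (probe set 1448777_at), a subunit of the ring, was at 9.5 and 9.31 in homozygous cells at 4 h, against 10.27 and 10.09 in untreated homozygous cells. The heterozygous 4 h arrays were at 9.59 and 9.63, against 10.10 and 10.22 untreated, and the wt 4 h arrays at 9.75 and 9.49, against 9.88 and 10.04 untreated. All 4 h arrays lay below all untreated arrays of their genotype. Mcm2 fell by 0.78 ± 0.12 in homozygous cells (adjusted p = 0.000489) and by 0.55 ± 0.12 in heterozygous cells (0.00535), and the wt difference was -0.35 ± 0.12 (0.0621). The homozygous call held under each of 18 other settings. At 24 h Mcm2 was at 10.02 and 9.93 in homozygous, 10.16 and 9.93 in heterozygous and 10.26 and 10.14 in wt cells, with differences from untreated cells of -0.21, -0.12 and 0.24, none past the threshold.

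Mcm4, another subunit of the ring, was the gene that fell at 4 h in each genotype, by 0.33 ± 0.12 in homozygous, 0.45 ± 0.12 in heterozygous and 0.38 ± 0.12 in wt cells (adjusted p = 0.0485, 0.0147 and 0.0416). Its brightest probe set, 1436708_x_at, is of a type that can bind related sequences. The other kept probe set, 1416214_at, differed by -0.31 ± 0.17, -0.08 ± 0.17 and -0.31 ± 0.17 and did not pass the threshold, so the call rests on 1 probe set. The homozygous and the heterozygous call were each lost without untreated replicate 1 or 2 or 4 h replicate 2, and the wt call without untreated replicate 1 or 4 h replicate 2. Mcm3, whose promoter is printed above, was at 9.99 to 10.51 in wt cells at 4 h, against 10.79 and 10.83 untreated, and fell by 0.56 ± 0.15 (0.0179). That call was lost without untreated replicate 1 or 4 h replicate 2, and the other 3 kept probe sets of Mcm3 differed by -0.32, -0.34 and -0.08, none past the threshold. In homozygous and heterozygous cells Mcm3 differed by -0.34 ± 0.15 and -0.31 ± 0.15, with adjusted p of 0.0814 and 0.13.

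Mcm5, also of the ring, passed the threshold at 24 h, and its 4 h differences of -0.10 in homozygous, -0.16 in heterozygous and -0.30 in wt cells did not. At 24 h it was at 11.64 and 11.61 in homozygous cells, against 12.20 and 11.97 untreated, at 11.83 and 12.01 in heterozygous cells, against 12.40 and 12.30, and at 11.88 and 11.75 in wt cells, against 12.33 and 12.54. The groups did not overlap in any genotype. Mcm5 fell by 0.46 ± 0.12 in homozygous cells (0.0309) and by 0.62 ± 0.12 in wt cells (0.00511), and the heterozygous difference was -0.43 ± 0.12 (0.0503). Its other kept probe set, 1415945_at, fell by 0.67 ± 0.18 in wt cells (adjusted over probe sets, 0.0369) and differed by -0.48 ± 0.18 in homozygous cells (0.156). Neither Mcm6 nor Mcm7, the remaining ring subunits, passed the threshold in any of the 15 comparisons, and their differences at 24 h were -0.35 to 0.11.

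Cdc6, the loader whose promoter holds a match, was at 7.87 and 7.63 in homozygous cells at 24 h, against 8.58 and 8.15 untreated. In wt cells it was at 8.44 and 8.36 at 24 h and at 8.50 and 8.38 at 4 h, against 8.95 and 9.0 untreated. It fell by 0.62 ± 0.16 at 24 h in homozygous cells (0.0339), and in wt cells by 0.57 ± 0.16 at 24 h (0.0407) and by 0.53 ± 0.16 at 4 h (0.0373). Of 18 other settings, these calls were lost in 6, 7 and 8. The heterozygous arrays at 24 h, at 8.17 and 8.26, were below the untreated ones at 8.83 and 8.73, with a difference of -0.57 ± 0.16 (0.0585). At 4 h Cdc6 differed by 0.13 in homozygous and -0.25 in heterozygous cells, neither past the threshold. Cdt1, the partner of Cdc6 in loading, did not pass the threshold in any comparison, and its 24 h differences were -0.13, -0.28 and -0.59 in homozygous, heterozygous and wt cells.

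Of the origin recognition complex, Orc6 rose at 4 h in homozygous cells, where the arrays were at 10.18 and 9.96, against 9.68 and 9.63 untreated (0.41 ± 0.12, 0.0181). In heterozygous and wt cells it differed by 0.24 ± 0.12 and 0.35 ± 0.12 (0.152 and 0.0584), with all 4 h arrays above the untreated ones. Orc1 was the only measured gene with an array under log2 5, at 4.87 and 5.26 in homozygous cells at 24 h, against 6.06 and 5.79 untreated. Its 24 h difference there, -0.86 ± 0.32, was not past the threshold (0.128), and its size is uncertain at that brightness.

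Genes that switch the helicase on moved in both directions. Gins2 (probe set 1452881_at) was at 9.39 and 9.22 in homozygous cells at 4 h and at 7.95 and 7.61 at 24 h, against 8.78 and 8.36 untreated. In heterozygous cells it was at 9.45 and 9.36 at 4 h and at 7.91 and 8.09 at 24 h, against 8.75 and 8.63 untreated, and in wt cells at 9.49 and 9.59 and at 8.32 and 7.95, against 8.93 and 9.41. In each genotype both 4 h arrays were above, and both 24 h arrays below, both untreated arrays. The rise at 4 h was 0.73 ± 0.19 in homozygous (0.00948) and 0.71 ± 0.19 in heterozygous cells (0.014), and the wt difference was 0.37 ± 0.19 (0.179). The fall at 24 h was 0.79 ± 0.19 in homozygous (0.0195), 0.69 ± 0.19 in heterozygous (0.046) and 1.03 ± 0.19 in wt cells (0.00381). The wt fall held without any single array; the homozygous fall was lost without untreated replicate 1 or 24 h replicate 2, the heterozygous fall without any one of its 4 arrays, the homozygous rise without untreated replicate 2 or 4 h replicate 1, and the heterozygous rise likewise.

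Cdc45, which joins the Mcm ring together with GINS, was at 6.78 and 6.76 in homozygous cells at 4 h, against 6.16 and 5.69 untreated, and at 6.84 and 6.94 in heterozygous cells, against 6.45 and 6.23. It rose by 0.84 ± 0.19 (0.00473) and 0.55 ± 0.19 (0.0486), and the wt difference was 0.33 ± 0.19 (0.243), with the wt arrays not overlapping. The heterozygous call was lost without any one of its 4 arrays and the homozygous call without untreated replicate 2. Gins1, another GINS subunit, was at 7.86 and 7.43 in wt cells at 24 h, against 8.21 and 8.75 untreated, and fell by 0.83 ± 0.22 (0.0287). In the mutants its 24 h differences were -0.34 ± 0.22 in homozygous and -0.42 ± 0.22 in heterozygous cells (0.451 and 0.367).

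Mcm10, a factor that helps the helicase to start, did not share the rise at 4 h. In heterozygous cells it was at 6.89 and 7.02 at 4 h and at 6.58 and 6.65 at 24 h, against 7.35 and 7.44 untreated, and in wt cells at 6.90 and 6.84 at 4 h and 6.51 and 6.75 at 24 h, against 7.60 and 7.35. In both genotypes the arrays of the 3 times did not overlap and were lower at each later time. Mcm10 fell by 0.77 ± 0.19 at 24 h in heterozygous cells (0.0265), and in wt cells by 0.61 ± 0.19 at 4 h (0.0403) and 0.84 ± 0.19 at 24 h (0.0128). Of 18 other settings, these calls were lost in 5, 8 and 3. The homozygous arrays at 24 h, at 6.47 and 6.21, were below the untreated ones at 6.91 and 7.07, with a difference of -0.65 ± 0.19 (0.053).

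At the fork, 11 of 12 genes had a negative difference at 24 h in homozygous cells and all 12 did in heterozygous and in wt cells. Over all 10078 genes 5461, 4761 and 5917 had a negative difference. Of the fork genes 2 fell in homozygous, 2 in heterozygous and 6 in wt cells, beside the 5.51%, 4.12% and 7.14% of all genes. Prim1, the catalytic subunit of primase, was at 8.53 and 8.32 in homozygous cells at 24 h, against 9.02 and 8.91 untreated, and at 8.85 and 8.83 in wt cells, against 9.37 and 9.69. It fell by 0.54 ± 0.14 (0.0343) and 0.69 ± 0.14 (0.00825), and the heterozygous difference was -0.34 with the arrays apart. Of 18 other settings, the homozygous Prim1 call was lost in 6 and the wt call in 4. Pold1, the catalytic subunit of polymerase delta, was at 8.91 and 8.68 in wt cells at 24 h, against 9.38 and 9.77 untreated, and fell by 0.79 ± 0.22 (0.0329), whereas its other kept probe set differed by -0.57 ± 0.24, not past the threshold. Pole, that of polymerase epsilon, fell by 0.58 ± 0.15 in heterozygous cells (0.036), where it was at 7.43 and 7.56, against 8.24 and 7.91, and by 0.51 ± 0.15 in wt cells. The heterozygous call was lost with a replicate block within genotype and without 3 of its 4 arrays. The wt call was lost with either replicate block and in 11 of 18 settings in all. Both blocks use the replicate numbers, which by Xist join unlike untreated and treated wt arrays, so their loss of the wt call decides little.

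Rpa2, a subunit of the complex that coats single-stranded DNA, rose and then fell in the heterozygous cells. Its arrays there were at 9.34 and 9.30 at 4 h and at 8.53 and 8.26 at 24 h, against 8.97 and 8.86 untreated. Homozygous arrays were at 9.36 and 9.29 at 4 h and 8.54 and 8.36 at 24 h, against 8.85 and 8.73, and wt arrays at 9.23 and 9.07 and at 8.66 and 8.50, against 9.15 and 9.35. The 4 h arrays lay above the untreated ones in both mutants and overlapped them in wt cells. Rpa2 rose at 4 h by 0.53 ± 0.13 in homozygous (0.0057) and 0.41 ± 0.13 in heterozygous cells (0.0284), with a wt difference of -0.10 ± 0.13 (0.605). At 24 h it fell by 0.52 ± 0.13 in heterozygous (0.0246) and 0.67 ± 0.13 in wt cells (0.00427), and the homozygous difference was -0.34 ± 0.13 (0.127). Of 18 other settings, the heterozygous rise and the heterozygous fall were each lost in 4, mostly with an array left out. Their differences ran from 0.35 to 0.47 and from -0.65 to -0.38. The homozygous rise was lost in 1 setting and the wt fall in 2.

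Pcna, the sliding clamp, had the smallest range over the 18 arrays among the 34 genes, 0.55 on the log2 scale. It was at 13.10 and 12.99 in homozygous cells at 24 h, against 13.32 and 13.14 untreated, at 13.15 and 13.19 in heterozygous cells, against 13.47 and 13.36, and at 13.18 and 13.07 in wt cells, against 13.35 and 13.54. The groups did not overlap in any genotype, and Pcna fell in wt cells by 0.32 ± 0.09 (0.0338), with differences of -0.19 ± 0.09 in homozygous (0.261) and -0.24 ± 0.09 in heterozygous cells (0.141). Of the 4 clamp loader subunits on the list, Rfc4 fell in homozygous cells at 24 h (by 0.46 ± 0.13, 0.0479), where its arrays were at 9.77 and 9.52, against 10.24 and 9.97 untreated. Over 18 other settings that difference ran from -0.59 to -0.32, and the call was lost in 11 of them. Rfc3 fell in wt cells (by 0.52 ± 0.15, 0.0419), and Rfc2 and Rfc5 did not pass the threshold against untreated cells.

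Fen1, the nuclease that trims Okazaki fragments, rose at 4 h in homozygous cells, where its arrays were at 10.85 and 10.72, against 10.44 and 10.07 untreated (0.53 ± 0.15, 0.0139). Its 4 h differences were 0.26 in heterozygous and 0.36 in wt cells, with all 4 h arrays above the untreated ones and neither past the threshold. Pola1, the catalytic subunit of polymerase alpha, fell in homozygous cells at 4 h by 0.93 ± 0.34 (0.0459), but its arrays there were far apart, at 7.98 and 6.97, against 8.59 and 8.22 untreated. Without 4 h replicate 2 the difference was -0.43 and without either untreated array the call was also lost. The wt arrays of Pola1 at 4 h, at 7.91 and 9.12, were as far apart. Lig1, the ligase that joins the fragments, was not past the threshold in any comparison, with 24 h differences of -0.45, -0.43 and -0.47.

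No gene of nucleotide supply passed the threshold against untreated cells. Rrm2, the subunit of ribonucleotide reductase made in S phase, was at 12.68 and 12.62 in homozygous cells at 24 h, against 12.88 in the lower of the untreated arrays, at 12.76 and 13.11 in heterozygous cells, against 13.16 and 13.44, and at 13.35 and 13.20 in wt cells, against 13.34 and 13.56. The arrays were apart in the mutants and overlapped in wt cells, and the differences of -0.29, -0.36 and -0.17 (± 0.16 each) did not pass the threshold. Rrm1, its partner, differed by -0.27 to -0.30 at 24 h in the 3 genotypes, and Dut, which removes dUTP, by 0.11 to 0.28, none past the threshold.

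Behind the fork, Uhrf1 (probe set 1415810_at) was at 10.01 and 9.69 in homozygous cells at 4 h and 9.67 and 9.52 at 24 h, against 10.69 and 10.40 untreated. It was at 10.26 and 10.08 and at 9.81 and 10.07 in heterozygous cells, against 10.55 and 10.67, and at 10.47 and 10.04 and at 10.12 and 9.89 in wt cells, against 10.47 and 10.84. All treated arrays of the mutants and all wt 24 h arrays were below the untreated arrays. Uhrf1 fell at 24 h by 0.95 ± 0.18 in homozygous (0.00477), 0.67 ± 0.18 in heterozygous (0.0397) and 0.66 ± 0.18 in wt cells (0.0326), and at 4 h by 0.69 ± 0.18 in homozygous cells (0.00953). The heterozygous call at 24 h was lost without any one of its 4 arrays, the wt call without any one but untreated replicate 1, and the homozygous call without untreated replicate 1 or 24 h replicate 2. Chaf1b, a subunit of the histone loader CAF-1, differed at 24 h by -0.81 ± 0.28 in homozygous, -0.60 ± 0.28 in heterozygous and -0.65 ± 0.28 in wt cells, none past the threshold.

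Among the G1/S regulators, Ccne2, cyclin E2, fell at 4 h by 0.57 ± 0.14 in heterozygous (0.0094) and 0.44 ± 0.14 in wt cells (0.0412), and the homozygous difference was -0.29 ± 0.14 (0.118). Its heterozygous arrays were at 9.69 and 9.53 at 4 h, against 10.19 and 10.18 untreated, and its wt arrays at 10.00 and 10.11, against 10.68 and 10.31. At 24 h the Ccne2 differences were -0.16 to -0.27 and did not pass the threshold. Ccne1, cyclin E1, was at 9.02 and 9.01 in homozygous cells at 24 h, against 9.55 and 9.41 untreated, a difference of -0.46 ± 0.17 (0.134). E2f1, the transcription factor, had differences of 0.17 in homozygous, 0.31 in heterozygous and -0.19 in wt cells at 24 h, with overlapping arrays in homozygous and wt cells. Neither Ccne1 nor E2f1 passed the threshold in any comparison.

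Comparison of 24 h with 4 h does not use the untreated arrays, and by it 3 of 4 helicase activation genes were lower at 24 h in each genotype, as were 8 of 12 fork genes in homozygous, 5 in heterozygous and 5 in wt cells. In homozygous cells 17 of 34 genes were lower at 24 h (50%, against 22% of all genes) and 1 was higher (against 14.9%). In heterozygous cells 11 were lower (32.4%, against 17.3%) and 1 was higher (against 14.9%). In wt cells 9 were lower (26.5%, against 19.2%) and 2 were higher (against 15.1%). The higher genes were Mcm2 in all 3 genotypes, by 0.57, 0.44 and 0.58 in homozygous, heterozygous and wt cells (± 0.12 each), and Mcm3 in wt cells, by 0.43 ± 0.15 (0.0363). The other 3 kept probe sets of Mcm3 differed by 0.21 ± 0.18, 0.22 ± 0.16 and -0.07 ± 0.13 there, none past the threshold.

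Gins2 was 1.53 ± 0.19 lower at 24 h than at 4 h in homozygous (0.000131), 1.40 ± 0.19 in heterozygous (0.000257) and 1.41 ± 0.19 in wt cells (0.000331). Cdc45 was lower by 0.89, 0.73 and 0.73 (± 0.19 each), Gins1 by 0.86, 0.67 and 0.87 (± 0.22 each), and Rpa2 by 0.88, 0.93 and 0.57 (± 0.13 each) in homozygous, heterozygous and wt cells. Orc6, Prim1, Rfc2, Fen1 and Pcna were also lower at 24 h in each genotype, although the other kept probe set of Fen1 differed by -0.26 ± 0.16 in wt cells, not past the threshold. Orc1 was 1.22 ± 0.32 lower in homozygous cells (0.0102), with arrays at 4.87 and 5.26 at 24 h, against 6.39 and 6.18 at 4 h. Chaf1b was 1.17 ± 0.28 lower there (0.00691), with arrays at 6.69 and 6.25, against 7.75 and 7.53. In both genes the arrays did not overlap. The homozygous count was 6 without 4 h replicate 1 and 10 without 24 h replicate 2, and the heterozygous count was 5 and 4 without the 4 h replicates 1 and 2 and 4 and 7 without the 24 h replicates 1 and 2. In wt cells it was 5 without 4 h replicate 2 or without 24 h replicate 2.

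Marker sums moved between these times as well. The macrophage sum was 6516 to 6870 in homozygous cells at 24 h, against 12133 to 12239 at 4 h, and 9672 to 13003 in heterozygous cells, against 14337 to 18060. The skeletal muscle sum was 1099 to 1295 in homozygous cells at 24 h, against 1837 to 2279 at 4 h, and the epithelial sum 1277 to 1412, against 2030 to 3038. In heterozygous cells both of these sums were also lower at 24 h without overlap, and in wt cells the macrophage, muscle and epithelial sums overlapped. The fibroblast sum was higher at 24 h in each genotype without overlap, at 240744 to 249913 in homozygous cells, against 191384 to 208784 at 4 h. Of the 9 fibroblast markers 3 were higher by the test in each genotype. The part of these markers in the result was not tested.

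Before treatment, most of the 34 genes had a lower mean in the mutants than in wt cells, but none of them passed the threshold. Homozygous cells had 0 of 34 genes past it by limma (against 0.615% of all genes lower and 1.15% higher), 21 with an unadjusted p under 0.05 (against 18% of all genes) and a median difference of -0.38, beside -0.02 for all genes. Heterozygous cells also had 0 (against 0.149% lower and 0.774% higher), 4 with an unadjusted p under 0.05 (against 9.72%) and a median of -0.17, beside -0.04. Both homozygous arrays lay below both wt arrays in 24 of 34 genes (against 24.6% of all genes), and both heterozygous arrays did in 10 (against 18.9%). Prim1 was at 9.02 and 8.91 in homozygous cells, against 9.37 and 9.69 in wt cells (-0.56 ± 0.14, 0.0716), and Cdc6 at 8.58 and 8.15, against 8.95 and 9.0 (-0.61 ± 0.16, 0.0851). Mcm2 was higher in both mutants with no overlap, by 0.22 in homozygous and 0.20 in heterozygous cells.

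The result rests on 2 untreated arrays a genotype. The wt arrays were far apart: 28 of 34 genes were higher in replicate 2, and replicate 1 minus replicate 2 averaged -0.27. The homozygous arrays were apart as well, with 32 of 34 genes higher in replicate 1 and an average of 0.21. In the heterozygous pair 22 were higher in replicate 1, with an average of 0.06. The share of all genes was not counted for these pairs. Without wt replicate 1, 10 genes were past the threshold in homozygous and 2 in heterozygous cells, all lower, and without wt replicate 2 there were 0 in each. The macrophage markers moved with genotype as well. Their summed intensity was 8913 to 9490 in homozygous and 12151 to 15295 in heterozygous untreated cells, against 1374 to 3699 in wt cells, all 12 of 12 markers were higher in both mutants with no overlap, and 3 passed the threshold in homozygous and 5 in heterozygous cells. Skeletal muscle marker sums were 1446 to 1616 in homozygous and 1651 to 2115 in heterozygous cells, against 3003 to 3487 in wt cells. Their median log2 differences were -1.39 and -1.18 over 4 markers, with 0 past the threshold. Xist was high in both untreated heterozygous arrays, whereas the wt and the homozygous pair each held a high and a low array. The part of these markers and of sex in the result was not tested.

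The response to TGFb was not shown to differ by genotype. The difference between the mutant and the wt response passed the threshold by limma in 0 of 34 genes, and in 0 of 10078 genes (0%), at 4 h and 24 h in homozygous and heterozygous cells. At an unadjusted p under 0.05 there were 3 genes in homozygous cells at 4 h (against 8.4% of all genes), 1 at 24 h (against 5.73%), 1 in heterozygous cells at 4 h (against 3.44%) and 0 at 24 h (against 3.09%). Rpa2 had the smallest unadjusted p in both mutants at 4 h, with a response 0.64 ± 0.18 above that of wt cells in homozygous (unadjusted p = 0.00352, adjusted 0.517) and 0.51 ± 0.18 above it in heterozygous cells (unadjusted p = 0.0137, adjusted 1). In homozygous cells Cdc6 (0.66 ± 0.23, adjusted 0.537) and Mcm2 (-0.43 ± 0.17, adjusted 0.558) followed. The 34 differences ran from -0.88 to 0.67 in homozygous cells at 4 h and from -0.49 to 0.49 at 24 h. The same untreated wt arrays enter these values. By Xist the heterozygous groups also differ in sex composition from the wt groups, and the part of sex was not tested.

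Other genes of the cell cycle, from lists of 22 mitosis, 36 further replication and 28 G1/S control genes measured here, give the setting. Of 22 mitosis genes 21 fell at 24 h in homozygous (95.5%), 21 in heterozygous (95.5%) and 20 in wt cells (90.9%). Over all genes the shares that fell were 5.51%, 4.12% and 7.14%. Median log2 differences of the mitosis genes were -0.91, -0.78 and -0.75. Cyclin B2 (Ccnb2) fell by 1.10 ± 0.12, 0.99 ± 0.12 and 1.08 ± 0.12. At 4 h, 7 mitosis genes fell (31.8%, against 17.5% of all genes) and 1 rose (4.55%, against 20.1%) in homozygous cells. In heterozygous cells 2 fell (9.09%, against 13.2%) and in wt cells 3 fell (13.6%, against 11.4%). These heterozygous and wt shares are near those of all genes. All mitosis genes were below untreated cells at 24 h in each genotype, without overlap of arrays. Over all genes this held for 35.3% in homozygous, 25.9% in heterozygous and 27.2% in wt cells. The median difference of the mitosis genes was further below 0 than that of the 34 replication and G1/S genes at 24 h, and the difference between the lists was not tested.

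**Figure D4:**
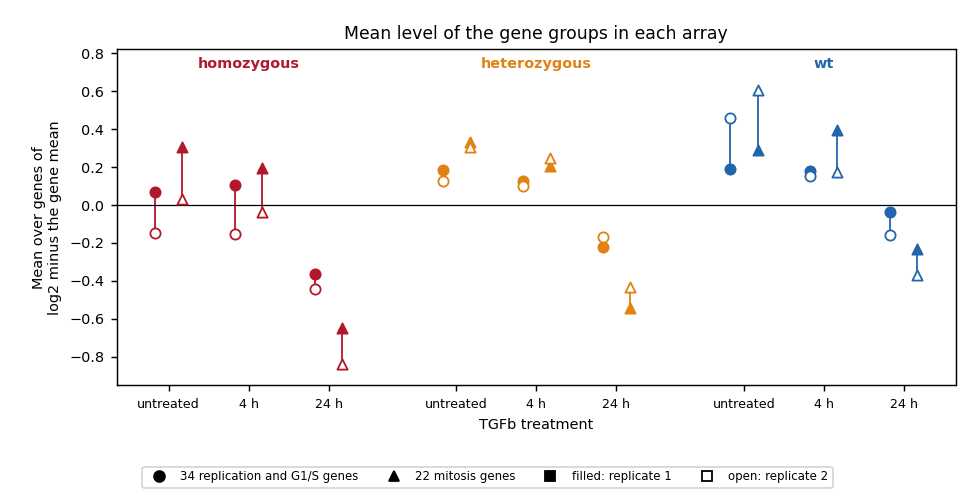
Mean over genes of the log2 intensity minus the gene mean, in each of the 18 arrays, for the 34 replication and G1/S genes (circles) and 22 mitosis genes (triangles); filled symbols are replicate 1 and open symbols replicate 2, and a line joins the 2 arrays of a group. Both lists are lowest at 24 h in each genotype, and the 4 h arrays lie near the untreated ones except in wt cells, where untreated replicate 2 is highest.

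Of the 36 further replication genes 3 fell at 24 h in homozygous (8.33%, against 5.51% of all genes), 3 in heterozygous (8.33%, against 4.12%) and 7 in wt cells (19.4%, against 7.14%). Thymidine kinase 1 (Tk1) fell by 1.53 ± 0.22, 1.45 ± 0.22 and 1.62 ± 0.22, and claspin (Clspn), a checkpoint protein at the fork, by 1.0 ± 0.17, 0.83 ± 0.17 and 1.02 ± 0.17. At 4 h, 7 rose (19.4%, against 20.1% of all genes) and 9 fell (25%, against 17.5%) in homozygous, 4 rose (11.1%, against 15.7%) and 8 fell (22.2%, against 13.2%) in heterozygous and 2 rose (5.56%, against 9.49%) and 9 fell (25%, against 11.4%) in wt cells. Pold4, the smallest polymerase delta subunit, rose by 0.97, 0.83 and 0.66 (± 0.19 each), and Topbp1, which activates the ATR kinase, fell by 0.85, 0.79 and 0.64 (± 0.12 each).

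Of the 28 G1/S control genes 1 rose and 5 fell (17.9%, against 5.51% of all genes) at 24 h in homozygous, 1 rose and 2 fell (7.14%, against 4.12%) in heterozygous and 1 rose and 3 fell (10.7%, against 7.14%) in wt cells. The gene that rose was Cdkn2b, by 0.64 ± 0.12, 0.72 ± 0.12 and 0.72 ± 0.12 (adjusted p = 0.00442, 0.00261 and 0.00201). Cyclin A2 (Ccna2) fell by 1.07, 0.97 and 0.95 (± 0.13 each). At 4 h Rbl2, which encodes the pocket protein p130, fell by 1.35 ± 0.13, 1.13 ± 0.13 and 0.90 ± 0.13. Cdkn2b was not higher at 4 h in any genotype: it fell by 0.43 ± 0.12 in heterozygous cells, and differed by -0.31 in homozygous and -0.10 in wt cells.

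Other probe sets of the genes that passed mostly had the sign of the brightest. Among the other kept probe sets of genes that passed the threshold against untreated cells, 6 of 6 at 4 h and 5 of 5 at 24 h in homozygous, 4 of 4 and 3 of 3 in heterozygous and 4 of 4 and 7 of 7 in wt cells had that sign. For 24 h against 4 h it was 11 of 11, 8 of 8 and 9 of 10, the exception being the Mcm3 probe set in wt cells given above. Of the 34 genes 26 passed the threshold in at least 1 of the 15 comparisons and 8 in none: Ccne1, E2f1, Cdt1, Mcm6, Mcm7, Lig1, Rrm2 and Dut. The share of all genes that passed in at least 1 comparison was not counted. The count of 26 is therefore no result about the set.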

How the data were processed

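Total RNA of 18 mouse embryonic fibroblast samples was measured on Affymetrix expression arrays with 45101 probe sets. The deposited values are linear intensities that the authors made with GCRMA (background correction, normalization between arrays and one value per probe set), per the submitters' processing notes, with no version stated. No scan date is given in the sources used here and no batch was modelled. Groups came from the sample titles, and every column was used. In each array, 39.5 to 40.3% of probe sets reached log2 5, and 2 arrays a group limit the precision.

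From these intensities log2 was taken without further normalization. Of the probe sets, 34945 name 1 gene and were used, and 932 that name several were not. A probe set was kept when 2 or more arrays reached log2 5 (17442 kept), and the brightest kept probe set stood for a gene (10078 genes). Differences were fitted in R 4.3.3 with limma 3.58.1, with a mean for each of 9 groups and eBayes with an intensity trend (9 residual degrees of freedom, median prior 3.78), two-sided, with Benjamini-Hochberg adjustment across all 10078 genes in each of 15 comparisons and a threshold of 0.05. The fit was tested on simulated data.

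The genes, lists and tests were chosen with earlier results of these data known. Values per array are given for the 6 genes with the largest change past the threshold in each 24 h comparison with untreated cells, for 4 in each other comparison and for key genes; from the other lists up to 4 genes that passed could be named. Genes outside this rule are named to account for the set. Alternatives were other filters, probe set rules, scalings, variance settings, replicate blocks and leaving out each array. Promoters came from RefSeq, GRCm38.p6; the deposited values carry no coordinates.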

Additional observations from a re-analysis of the deposited data

How the results depend on the processing

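No direction of a gene that passed the threshold turned round over 85 results under 18 settings each. Of these 1530 values 1186 kept the call and 344 lost it. Some settings could not turn a direction, because they left the difference of group means as it was. These were no intensity trend, only the compared groups, each probe set on its own and the replicate blocks. The 18 settings include the crossed block given below, which was chosen after seeing the data. Counts of genes past the threshold, of 34, moved by over 1.5 times as follows. With array weights there were 16 (8 higher, 8 lower) in homozygous and 0 in wt cells at 4 h, and 20, 10 and 0 in homozygous, heterozygous and wt cells at 24 h, and 2 in wt cells for 24 h against 4 h. With only the compared groups there were 11 in homozygous cells at 24 h, and in wt cells 0 at 4 h, 0 at 24 h and 0 for 24 h against 4 h. Without a filter there were 2, 1 and 5 at 24 h in homozygous, heterozygous and wt cells and 2 in wt cells at 4 h. Equal array medians gave 3 in homozygous cells at 24 h and 2 in wt cells at 4 h, quantile normalization 3 and leaving out x_at and s_at probe sets 3 in wt cells at 4 h. Every probe set tested on its own and no intensity trend each gave 3 in heterozygous cells at 24 h. Where a count moved, the cause was not tested.

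Leaving out one array at a time gave these lowest and highest counts. At 4 h there were 3 to 8 in homozygous, 0 to 3 in heterozygous and 0 to 8 in wt cells, and at 24 h 0 to 5, 0 to 1 and 3 to 19. For 24 h against 4 h there were 6 to 18, 4 to 7 and 5 to 12. In untreated cells there were 0 to 10 for homozygous and 0 to 2 for heterozygous against wt. Differences between responses gave 0 throughout. A group with 1 array left was assumed to vary like the others.

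The replicate numbers do not pair the arrays by any label. Within a genotype the replicate differences correlated at 0.54 to 0.61 in homozygous and 0.38 to 0.45 in heterozygous cells, and in wt cells at -0.49 and -0.66 between untreated and treated groups. A replicate block within genotype called 3 genes, all lower, in untreated homozygous against wt cells, and one over all groups moved no count by over 1.5 times. With the wt untreated numbers crossed, chosen after seeing the data, the block gave 16, 13 and 20 at 24 h in homozygous, heterozygous and wt cells, 12 in wt cells at 4 h, 19 and 18 in heterozygous and wt cells for 24 h against 4 h, and 13 in untreated homozygous against wt cells.

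Genes near log2 5 are not measured well.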
